A study of Triticum aestivum with 45 samples.

Results

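Spikelets of the bread wheat cultivar Superb (Triticum aestivum) were compared 8 h after a spray with water and at 0 h, before any spray. The comparison used the 3 Superb water libraries and the 3 Superb untreated libraries, chosen by their labels, which are 6 of the 45 libraries of the series. Superb is a Canadian Hard Red Spring cultivar, and its spikes were treated at anthesis, the flowering stage. The other libraries come from the same spray experiment on Superb and on a pair of doubled haploid lines bred from it, here called DH1 and DH2. DH1 is GS-1-EM0040, from the donor CIMMYT11 crossed and backcrossed to Superb, and DH2 is GS-1-EM0168, from the donor CM82036 in the same way. All 3 genotypes were also sprayed with 100 µM solutions of salicylic acid (SA), the ethylene precursor ethephon or methyl jasmonate (MeJA), and those libraries are used below only as a setting for the water values. The labels give 5 plants per sprayed group and 1 spikelet per spike. They do not say whether replicates are separate plants, so p-values measure a spread between libraries, which may be technical. In the main edgeR fit that spread was estimated over all 45 libraries.

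A spikelet is the flower-bearing unit of the wheat spike, with florets enclosed by leaf-like glumes, lemmas and paleas. At anthesis its anthers shed pollen and its ovaries are fertilised. Transcript levels of many plant genes also follow the time of day through the circadian clock and light. Water was the vehicle for the hormones, and between 0 h and 8 h the spikelets also grew older and the time of day changed. Effects of the spray, of the clock and of development cannot be told apart here. In whole spikelets, fewer cells of a type and less RNA per cell cannot be told apart either.

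Genes are named by identifier alone, because neither the count table nor the reference table pairs these identifiers with gene names (0 of 110790 matched). No pathway, cell type or spikelet tissue could be checked by marker genes, and no sequence is shown. Subgenome (A, B or D), chromosome and gene order were read from the identifiers. Levels are CPM, read counts relative to library size, after TMM scaling; this scaling corrects for composition. A gene is called when its Benjamini-Hochberg adjusted p in edgeR's quasi-likelihood test, fitted to all 45 libraries, is under 0.05. Fold changes are water over untreated on the log2 scale. Library totals ran from 8729652 to 9924787 counts after water and from 11415694 to 15983167 counts in untreated spikelets.

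The 6 libraries fell into their labelled groups. A principal component analysis of log2 CPM over the 5000 most variable genes put 72.9% of their variance on its first axis, where water replicates 1, 2 and 3 lay at 91.9, 68.0 and 79.9. Untreated replicates 1, 2 and 3 lay at -79.2, -48.8 and -111.7 on this axis. The water libraries correlated with each other at 0.966 to 0.969 across genes, and the untreated ones at 0.936 to 0.962, while water against untreated gave 0.853 to 0.919. Untreated spikelets varied more between replicates although they were sequenced more deeply. The median SD of log2 CPM over the 46457 genes above 2 CPM was 0.18 after water and 0.23 untreated. Untreated replicate 3 stood apart from the others, since its counts differed from those of replicates 1 and 2 with 14.5 and 15.9 chi-square units per degree of freedom, beside 5.30 between those. The water pairs gave 3.61 to 4.21, so no pair of libraries agreed within sampling noise. What sets untreated replicate 3 apart was not tested, and the counts without it are given beside the main results. One library outside the comparison went against its label: Superb ethephon replicate 1 held transcripts found in DH1 and not in the compared Superb libraries. The 12 genes at 1 CPM or more in all 15 DH1 libraries and with 0 counts in the 6 Superb libraries summed to 15.3 CPM there, to at most 0.28 CPM in the other 8 hormone libraries of Superb and to between 41.7 and 58.95 CPM in DH1. This library enters the estimate of the spread, and ethephon values are also given without it. Leaving it out of the fit gave 8777 rises and 8648 falls for water against untreated, beside 8768 and 8580 with it.

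Over 8 h the transcriptome of Superb spikelets shifted in both directions, with strong changes more often downward. Of 63091 genes tested, 8768 rose (13.9%) and 8580 fell (13.6%). Log2 fold changes of 1 or more were called for 3279 genes (5.2%), and of -1 or less for 4639 (7.35%). The median log2 fold change was 0.79 for the genes that rose and -1.08 for those that fell. Changes of 4-fold or more were called for 1156 rising and 1691 falling genes, of 16-fold or more for 201 and 275, and of 64-fold or more for 43 and 66. The largest and smallest fitted values were 9.29 and -9.42. The median over all genes tested was -0.02, so the scaling centred the comparison near 0. Without untreated replicate 3, 6418 genes rose and 6914 fell, and of those 2757 and 3907 changed by at least 1 on the log2 scale. Of the original calls, 6019 rises and 6271 falls were among these.

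The calls mostly rested on groups that did not overlap. All 3 water libraries lay above all 3 untreated ones for 12351 genes (19.6% of those tested) and below them for 10930 (17.3%). Among the called genes this held for 8300 of the 8768 that rose and 7540 of the 8580 that fell.

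Switches between absence and presence were rare. A count of 0 in all 3 untreated libraries together with at least 1 CPM in every water library was found for 10 genes. All of them were called, beside 13.9% of all genes tested called higher, but the calls come with this choice. Their mean level after water ran from 1.42 to 6.71 CPM, and 0 counts in the summed untreated libraries allow up to 0.0745 CPM, taken as 3 counts. Each was thus at least 19.0-fold higher after water. The reverse, 0 counts in all water libraries and at least 1 CPM in every untreated one, was found for 8 genes. These were also all called, beside 13.6% of all genes tested called lower, and again this comes with the choice. They stood at 1.84 to 7.42 CPM untreated, against a limit of 0.103 CPM after water, at least 17.9-fold lower. These limits cover counting error only.

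The 12 largest gains in CPM were of genes at 37.2 to 538 CPM in untreated spikelets, and the first 2 are given here. Gains and losses were ranked only among called genes whose groups did not overlap. The calls and the separation of the groups thus come with the choice. TraesCS4A01G245100, at 49.0% of the order of the 4999 genes listed for chromosome 4A, stood at 955, 1043 and 1049 CPM in the water libraries and at 47.3, 66.2 and 40.6 CPM in the untreated ones. Every water library lay far above every untreated one. The log2 fold change was 4.31 (SE 0.25, edgeR adjusted p = 4.44e-15). TraesCS4B01G020300, near the start of 4B at 5.07% of the gene order, stood at 1140.2, 1166 and 1071 CPM after water and at 139, 176 and 275 CPM untreated. Its groups were also far apart, with the highest untreated value in replicate 3 (log2 fold change 2.52, SE 0.25, adjusted p = 9.23e-10 in edgeR).

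The largest losses in CPM were of transcripts abundant before the spray, which a ranking by loss in CPM requires. TraesCS4D01G135000, at 36.8% of the gene order of 4D, stood at 1516, 1572 and 1213 CPM after water and at 5247.5, 4513.5 and 2202 CPM in untreated spikelets. The groups did not overlap, as the choice required, but untreated replicate 3 lay much nearer to the water libraries than replicates 1 and 2 did. The log2 fold change was -1.48 (SE 0.35, edgeR adjusted p = 0.00122), and -1.77 without that library. TraesCS4A01G177500, at 35.5% of the order of 4A, showed the same layout, with 1011, 1091 and 929.9 CPM after water against 4283.5, 3860.4 and 1964 CPM untreated. Its log2 fold change was -1.74 (SE 0.33, adjusted p = 8.96e-05 in edgeR), and -2.01 without untreated replicate 3. In the untreated libraries of DH1 and DH2, too, replicate 3 had the lowest level of both genes. For TraesCS4D01G135000 it stood at 2435.5 CPM in DH1, against 4417 and 3858 CPM in replicates 1 and 2, and at 2656 CPM in DH2, against 5435 and 4250.3 CPM.

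**Figure D1:**
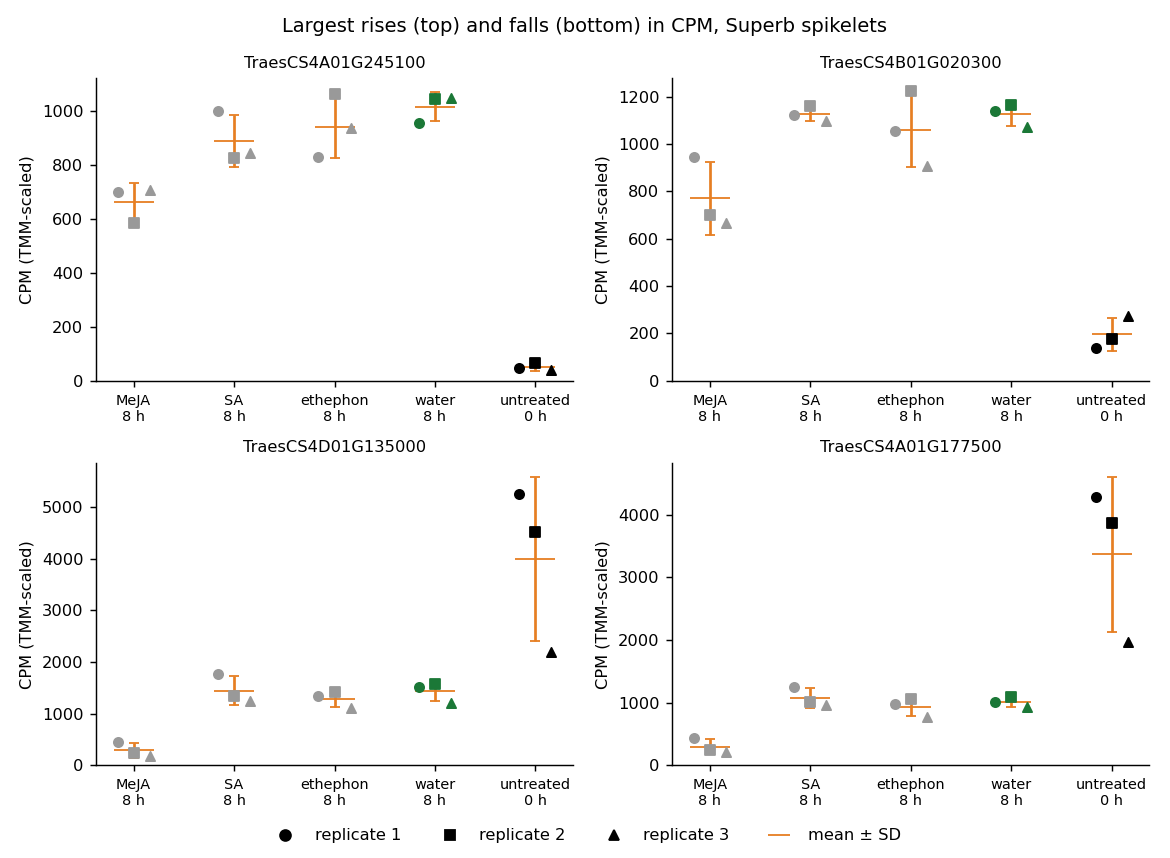
Level in CPM (linear axis from 0) of the 2 genes with the largest gain (top) and the 2 with the largest loss (bottom) in every Superb library, by treatment; symbols mark the replicate number and bars the mean ± SD of 3 libraries. For TraesCS4A01G245100 all 8 h libraries lie at 584 CPM or above and all untreated ones at 66.2 CPM or below, and for both falling genes untreated replicate 3 is the lowest of its group.

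The 2 rising genes also stood far above their untreated level after the other 8 h sprays. After MeJA, however, every library lay below every water library for both genes. TraesCS4A01G245100 averaged 662 ± 68.4 CPM after MeJA, 889 ± 96.5 CPM after SA and 941 ± 117 CPM after ethephon, beside 1015.5 ± 52.4 CPM after water and 51.4 ± 13.3 CPM untreated (SD, n = 3 each). Its log2 fold changes over the same untreated libraries were 3.69, 4.11 and 4.19, with 4.31 for water. For TraesCS4B01G020300 the levels were 769.7 ± 153 CPM after MeJA, 1126 ± 30.8 CPM after SA, 1061 ± 158 CPM after ethephon, 1126 ± 49.1 CPM after water and 196 ± 70.3 CPM untreated. TraesCS4D01G135000 stood at 292 ± 149 CPM after MeJA, well below the 1448 ± 280 CPM after SA, 1288 ± 156 CPM after ethephon, 1434 ± 193 CPM after water and 3988 ± 1590 CPM untreated. TraesCS4A01G177500 was likewise lowest after MeJA, at 296 ± 122 CPM, beside 1079 ± 157 CPM after SA, 931 ± 148 CPM after ethephon, 1010.5 ± 80.6 CPM after water and 3369 ± 1235 CPM untreated. Ethephon replicates 2 and 3 alone stood at 1061 and 935 CPM for TraesCS4A01G245100, at 1222 and 906 CPM for TraesCS4B01G020300, at 1415.5 and 1113 CPM for TraesCS4D01G135000 and at 1053 and 766 CPM for TraesCS4A01G177500. The comparisons of each spray with 0 h share their untreated libraries.

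Several of the largest changes lay at similar percentages of the gene order on chromosomes of the same group. This alone does not show that the genes are copies of each other. The next 10 rises gained 463 to 893 CPM, with log2 fold changes of 1.15 to 4.50, and the next 10 falls lost 1060 to 2160 CPM, with log2 fold changes of -2.16 to -1.03 (edgeR adjusted p of at most 0.00346). The 3 largest falls lay on 4D, 4A and 4B at 36.8%, 35.5% and 35.1% of the gene order. Among the rises, a gene on 4D at 5.04% stood at 779 CPM after water and 119 CPM untreated, beside TraesCS4B01G020300 at 5.07% of 4B. A pair at 17.6% of 4B and 18.8% of 4D stood at 977 and 654 CPM after water, and at 83.4 and 51.6 CPM untreated. The files do not pair homoeologs, the related copies on the A, B and D chromosomes, and near-identical copies can share reads, so the split between such genes is less certain than their sum. All 20 of these next genes were called in the same direction in both DH1 and DH2. Of all Superb calls this held for 58.4% of the rises and 61.4% of the falls. The choice of large and separated changes favours such agreement. The 12 largest rises held 1.05% of the counts after water and 0.198% untreated, and the 12 largest falls 1.07% after water and 2.82% untreated.

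Genes with a high mean over both groups fell more often than they rose. Among the 283 genes with a mean above 256 CPM over the 6 libraries, 132 fell (46.6%) and 34 rose (12%), and their median log2 fold change was -0.36. Between 64 and 256 CPM the shares were near each other, at 22.9% falling and 22.5% rising of 2341 genes. Between 4 and 16 CPM, 14.7% of 22338 genes fell and 16.4% rose. At 1 CPM or less 7.25% of 8997 genes fell and 5.66% rose, and there the counts allow only large changes to be called. A log2 fold change of -1 or less was called for 25.8% of the genes above 256 CPM, against 6.0% to 9.61% in the 5 lower classes. The imbalance depended on which libraries ranked the genes. Of the 100 genes with the highest mean level after water 26 fell and 24 rose, and of the 100 highest in untreated spikelets 62 fell and 2 rose. Each list was ranked by libraries that also form the fold change. This favours rises in the water list and falls in the untreated list. Without untreated replicate 3, 125 of the genes above 256 CPM fell and 31 rose.

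**Figure D2:**
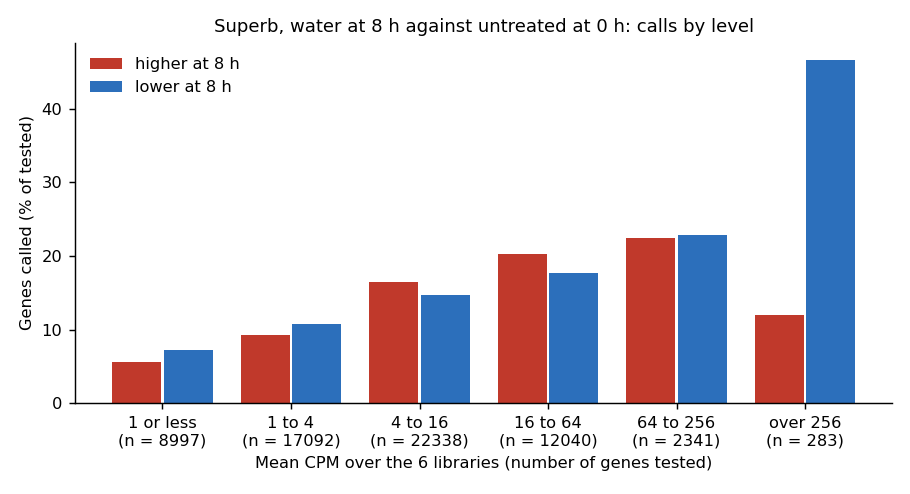
Percent of tested genes called higher (red) and lower (blue) in Superb water spikelets at 8 h than in untreated spikelets, by the gene's mean CPM over the 6 libraries; the axis starts at 0 and the number of genes tested is under each class. Above 256 CPM, 46.6% of the genes were lower and 12% higher, while in the classes from 1 to 256 CPM the shares differ by less.

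The 100 most abundant genes took a smaller part of the counts in every water library than in any untreated one. The 100 most abundant genes of each library held 7.45%, 7.73% and 7.98% of the counts in the 3 water libraries and 11.2%, 11.4% and 9.27% in the untreated ones. The exact two-sided permutation test over libraries gave p = 0.1, the smallest that 3 against 3 allows. The lists of the 100 genes with the highest mean level after water and untreated had 63 genes in common. The number of genes at 1 CPM or more overlapped between the groups, at 52486, 53178 and 53669 after water and 52904, 53515 and 53927 untreated. This difference of -338 genes was within the spread of the replicates (exact permutation p = 0.6, two-sided).

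The genes that moved in DH1 and DH2 were used to measure the response in Superb without letting the Superb fold changes choose them. The Superb libraries still entered the filter on low counts and the estimate of the spread. In both lines 2154 genes rose and 3194 fell by at least 1 on the log2 scale. Of the 2154, 1993 also rose in Superb (92.5%, against 13.9% of all genes tested), and their median log2 fold change was 1.83 in Superb, 1.86 in DH1 and 1.83 in DH2. Of the 3194, 2977 fell in Superb (93.2%, against 13.6% of all genes), with medians of -1.75 in Superb, -1.77 in DH1 and -1.74 in DH2. The middle 50% of the Superb values ran from 1.35 to 2.74 for the first set and from -2.49 to -1.32 for the second. No member of either set was called the other way in Superb by edgeR, and 2150 of 2154 and 3192 of 3194 had the same sign.

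These sets took up a changed part of the Superb transcriptome. The genes raised in both lines held 7.20%, 7.14% and 7.35% of the counts in the Superb water libraries and 1.68%, 1.91% and 1.31% in the untreated ones. The genes lowered in both lines held 4.96%, 4.91% and 5.81% after water and 15.7%, 15.7% and 13.6% untreated. Neither set overlapped between the groups. The water over untreated ratio of the mean shares was 4.42 for the raised set and 0.348 for the lowered one, each with an exact two-sided permutation p of 0.1, the smallest possible with 3 libraries against 3. The 10 most abundant genes of the lowered set held 20.4% of its share after water and 16.9% untreated. Without them the water minus untreated difference of its share was -8.31 percentage points, beside -9.77 with them.

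After the hormones the same sets stood nearer to their water level than to their untreated level. The raised set held 8.00 ± 1.31% of Superb counts after MeJA, 6.98 ± 0.557% after SA and 7.43 ± 0.498% after ethephon, beside 7.23 ± 0.108% after water and 1.63 ± 0.303% untreated (SD, n = 3 each). The lowered set held 4.15 ± 0.304% after MeJA, 5.37 ± 0.593% after SA and 4.80 ± 0.0728% after ethephon, beside 5.22 ± 0.508% after water and 14.99 ± 1.2% untreated. For this set every MeJA library (3.89% to 4.48%) and every ethephon library (4.72% to 4.87%) lay below every water library (4.91% to 5.81%). The SA libraries overlapped the water ones. All 12 libraries taken at 8 h lay above the 3 untreated ones for the raised set and below them for the lowered set. In Superb, 26.6% of the tested genes were called for SA against untreated, 26.9% for ethephon and 36.4% for MeJA, with the same 3 untreated libraries in each. Without ethephon replicate 1 the ethephon calls were 7483 genes higher and 7409 lower, beside 8617 and 8371 with it, and replicates 2 and 3 held 7.99% and 7.28% of their counts in the raised set and 4.80% and 4.72% in the lowered set.

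**Figure D3:**
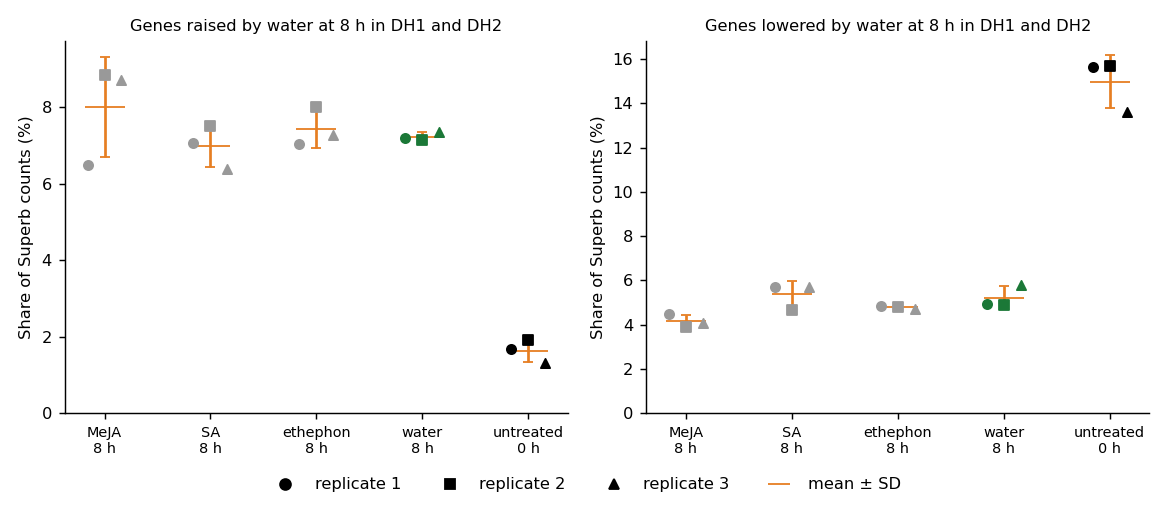
Share of the counts in each Superb library (percent, axis from 0) taken by genes that rose (left) or fell (right) by at least 1 on the log2 scale after water in both DH1 and DH2; symbols mark the replicate number and bars the mean ± SD of 3 libraries. Water libraries lie at 7.14 to 7.35% (left) and 4.91 to 5.81% (right), and untreated ones at 1.31 to 1.91% and 13.6 to 15.7%.

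The position of untreated replicate 3 relative to the water libraries differed between the sets. For the raised set, the median log2 difference of the mean water level from untreated replicates 1, 2 and 3 was 1.73, 1.5 and 2.08, so replicate 3 lay farthest away. For the lowered set these medians were -1.70, -1.61 and -1.64, near each other, although replicate 3 was the nearest of the untreated libraries to the water level for 44.8% of the genes.

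Most genes called in Superb were also called in DH1 or DH2, in the same direction. The lines had like shares of called genes, with 13.1% higher and 12.5% lower after water in DH1, against 12.9% higher and 13.8% lower in DH2. Of the 8768 Superb rises, 5121 were called in the same direction in both lines, which is 58.4% of the Superb list and 87.6% of the 5849 genes that rose in both lines. A further 1908 rose in 1 line, 1733 were called in neither (19.8%), and 6 were called lower in a line. Of the 8580 falls, 5268 were shared with both lines, 61.4% of the Superb list and 88.2% of the 5971 genes that fell in both, while 1653 fell in 1 line, 1652 were called in neither and 7 were called higher in a line. Log2 fold changes correlated across all genes with r = 0.77 between Superb and DH1 and 0.80 between Superb and DH2. These genotypes share no library, and the labels do not say whether equal replicate numbers mark a shared day or growth run. Untreated replicate 3 had the lowest share of counts in the lowered set in each genotype, at 13.6% in Superb, 13.5% in DH1 and 12.8% in DH2, and the lowest share in its 100 most abundant genes, at 9.27%, 9.56% and 9.53%. The part of such a shared feature in the likeness of the genotypes was not tested.

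Most genes called in Superb and in neither line had a fold change of the same sign in the lines. Of the 1733 rises called in neither line, 1611 were also above 0 in DH1 (93.0%) and 1619 in DH2 (93.4%), with a median log2 fold change of 0.65 in Superb, 0.30 in DH1 and 0.29 in DH2. Of the 1652 falls, 1445 were below 0 in DH1 (87.5%) and 1520 in DH2 (92.0%), with medians of -0.85, -0.29 and -0.33 in Superb, DH1 and DH2. The Superb medians include the selection of these genes by their Superb calls. The same-sign share over all tested genes was not computed. Fold changes correlated across all genes, at 0.77 with DH1 and 0.80 with DH2, so the likeness cannot be taken as particular to these genes. A group of 49 genes fell by at least 2 on the log2 scale in Superb with a log2 fold change above -0.5 in both lines. They were picked by these values and were of low level, with medians over the genes of 0, 0.204 and 0.111 CPM in the water libraries and 0.847, 0.358 and 2.48 CPM in untreated replicates 1, 2 and 3. In 37 of the 49 the highest untreated value was that of replicate 3, but the same share over all tested genes was not computed. At such levels a choice by strong falls favours genes with a high value in any untreated library. The reverse group, rising by at least 2 with a log2 fold change below 0.5 in both lines, held 3 genes. In the difference test given below, edgeR called 0 genes lower, so the 49 were not called as different from the lines.

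**Figure D4:**
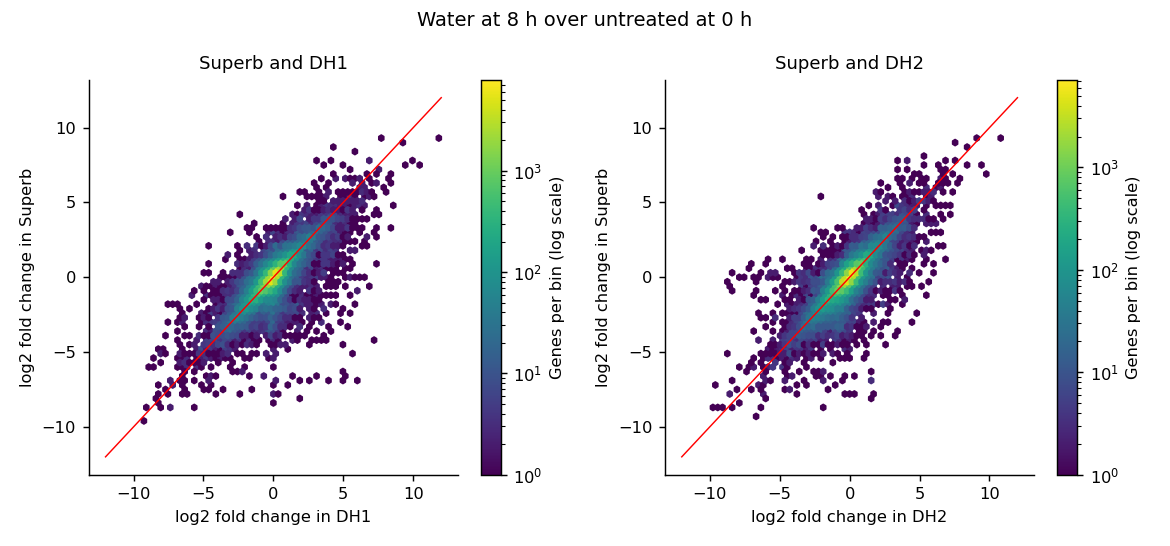
Log2 fold change of water at 8 h over untreated at 0 h for the 63091 genes tested, Superb (y axis) against DH1 (left) and DH2 (right); colour gives the number of genes per hexagon on a log scale and the red line marks equal change. Genes spread along the line, with r = 0.77 for DH1 and 0.80 for DH2 across genes, which are not independent replicates.

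The difference itself was tested as the Superb change minus the mean change of DH1 and DH2. It was called for 1 gene, 0.00159% of those tested, and in the lower direction edgeR called 0 genes. An unadjusted edgeR p under 0.05 was found for 2042 genes, 3.24% of those tested, of which 957 were higher and 1085 lower. This share is smaller than a threshold of 0.05 would give if no gene differed. The few calls therefore do not show that the changes were equal. DESeq2 called 4 genes higher, the same gene among them, and 6 lower. With the replicate number within each genotype as a block in edgeR, 5 genes were called higher, again with this gene, and 0 lower. A replicate effect shared by the genotypes was not fitted. The gene that edgeR called, TraesCS3B01G353800 on 3B, stood at 9.30, 7.96 and 7.78 CPM after water and at 7.34, 4.58 and 8.28 CPM untreated in Superb, so the groups overlapped. In DH1 it stood at 3.73, 3.77 and 4.81 CPM after water and at 6.43, 7.14 and 9.37 CPM untreated, and in DH2 at 1.70, 1.77 and 1.37 CPM against 5.80, 4.25 and 7.44 CPM. In both lines every water library lay below every untreated one. These are the libraries that gave the call, so their layout describes it and is no separate support. The log2 fold change was 0.31 in Superb (SE 0.19, edgeR adjusted p = 0.24), -0.92 in DH1 (SE 0.20, adjusted p = 0.000572) and -1.89 in DH2 (SE 0.22, adjusted p = 3.68e-08). The difference was 1.71 (SE 0.24, edgeR adjusted p = 0.00212). For the gene with the largest gain, TraesCS4A01G245100, the difference was 0.34 (SE 0.26), and for TraesCS4D01G135000, with the largest loss, it was -0.11 (SE 0.41), neither of them called. After SA and ethephon in Superb TraesCS3B01G353800 stood at 8.95 ± 0.596 and 8.04 ± 1.18 CPM, and after MeJA at 4.34 ± 1.12 CPM (SD, n = 3 each), with 8.27 and 9.09 CPM in ethephon replicates 2 and 3.

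Calls were spread over all subgenomes and chromosomes in similar shares. Of the tested genes of subgenomes A, B and D, 13.8%, 13.4% and 14.5% rose and 13.5%, 13.4% and 14.0% fell. Single chromosomes ranged from 12.8% rising on 1B to 14.97% on 5D, and from 12.1% falling on 7B to 15.2% on 3D. Calls with a log2 change of 1 or more ranged further, with rises from 4.14% on 6B to 6.69% on 3D and falls from 5.57% on 7B to 8.54% on 2D. The 688 tested genes of no assigned chromosome had 4.07% such rises and 9.59% such falls.

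Along the chromosomes, strong rises were least frequent in the middle of the gene order. Over all chromosomes, by relative gene order, 3.68% of 7305 tested genes rose by at least 1 on the log2 scale between 40 and 50% of the order. The share was 6.02% in the first 10% and 7.28% between 80 and 90%. The same stretches in DH1 gave 3.09%, 5.77% and 6.39%, and in DH2 3.27%, 6.06% and 7.54%. Strong falls had no such single low, with shares of 6.32% to 8.44%. These shares are descriptions with no test, since neighbouring genes are not independent.

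**Figure D5:**
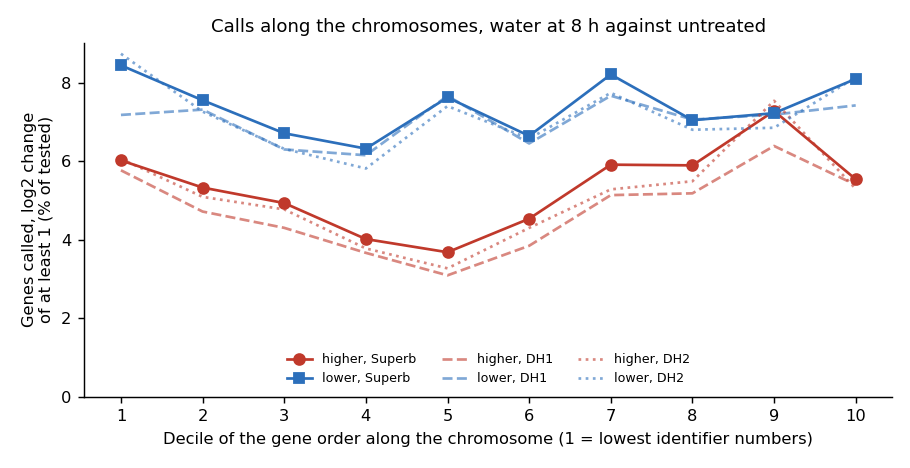
Percent of tested genes called with a log2 change of at least 1, higher (red) or lower (blue), by decile of the gene order along all chromosomes; solid lines with points are Superb, dashed lines DH1 and dotted lines DH2, and the axis starts at 0. Rises in Superb are lowest in decile 5, at 3.68%, and highest in decile 9, at 7.28%.

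Neighbouring genes shared a direction of strong change in a minority of cases, but in a larger share than all genes, with no test run. When a gene rose by at least 1 on the log2 scale, the next tested gene on its chromosome did so in 14.0% of 3249 cases, beside 5.21% of all placed genes. For falls this was 13.3% of 4571 cases, beside 7.33%. Runs of at least 3 neighbours numbered 70 for rises and 75 for falls, and held 251 and 263 genes. The longest rising run held 8 tested genes over 11 steps of the identifier numbering on 1A, at 64.8 to 65.0% of the gene order, with log2 fold changes of 2.21 to 6.49. Summed over its genes, the run stood at 88.0, 91.8 and 74.1 CPM after water and at 1.98, 9.53 and 1.15 CPM untreated. The longest falling run held 7 genes on 2A, at 11.2 to 11.3% of the order, with log2 fold changes of -2.78 to -1.74. Its sum was 343, 368.5 and 522 CPM after water and 2216, 2068 and 1425 CPM untreated. All members of both runs were called in the same direction in DH1 and in DH2, beside 58.4% of all Superb rises and 61.4% of all Superb falls. The runs were picked after their values were seen, and neighbouring duplicated genes may share reads.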

How the data were processed

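Total RNA of spikelets was sequenced as paired-end Illumina libraries made with a TruSeq RNA kit, per the labels' protocols. The authors deposited unscaled counts of reads for every gene and each of the 45 libraries. STAR 2.5.3a and DESeq2 are named in the submitters' processing notes, with no role. How reads were counted, whether strand was used, how multi-mapping reads were treated and which genome build was used is not given in the sources used here. Identifiers follow the style of IWGSC RefSeq v1.0.

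The tests used edgeR 4.0.16 under R 4.3.3, and filterByExpr kept 63091 of 110790 genes, with 99.73% of the counts. TMM factors and a quasi-likelihood model with 15 group means were used, with 30 residual degrees of freedom, and p-values were adjusted by Benjamini-Hochberg over all genes tested. Standard errors are the absolute log2 fold change over the square root of F. Log2 CPM for correlations and principal components used a prior count of 2. Shares of counts are over the tested genes. Steps were tested on simulated data. The named genes have the largest gain or loss in mean CPM among called genes whose groups do not overlap, 2 per direction, or were called for the difference between genotypes. The comparison and its gene sets were chosen with earlier results of these data known. Alternatives were DESeq2 1.42.0, its size factors, no filter, a replicate block within each genotype, fewer libraries and leaving out single libraries.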

Additional observations from a re-analysis of the deposited data

Results flagged for a closer look

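TraesCS3B01G353800 was the one gene that edgeR, with no block, called for the difference of the change after water in Superb minus the mean change in DH1 and DH2, at 1.71 on the log2 scale (SE 0.24, edgeR adjusted p = 0.00212). The difference ran from 1.51 to 1.91 when single Superb water or untreated libraries were left out, with adjusted p of at most 0.0324 over all alternatives run. All 3 water libraries lay below all 3 untreated ones in DH1 and in DH2, and the groups overlapped in Superb. The gene was picked by a test on these same libraries, so this layout comes with the choice.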

How the results depend on the processing

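All 5 named genes kept their direction and their call under every alternative run. Fitted to the 6 Superb libraries alone, 5447 genes fell and 6009 rose, and fewer libraries then set the spread. DESeq2 called 4 genes higher, TraesCS3B01G353800 among them, and 6 lower for the difference from DH1 and DH2, and the fit with a replicate block 5 higher, that gene included, and 0 lower. The replicate block gave 8983 rises and 8610 falls in Superb. The numbers were not taken as pairs of water and untreated libraries in Superb, where deviations of same-numbered libraries correlated at 0.0636, -0.316 and 0.15; numbers across genotypes were not checked this way. With DESeq2 size factors 8424 genes rose and 8925 fell, so the balance of rises and falls depends on the scaling. Leaving out single Superb water or untreated libraries gave 6418 to 8330 rises, 6661 to 8808 falls, 2757 to 3467 rises and 3907 to 5400 falls of at least 1 on the log2 scale, and, above 256 CPM, 31 to 35 rises and 110 to 126 falls. The difference test then called 1 gene higher and 0 lower each time. In percent of counts, water minus untreated, the set raised in both lines moved by 5.59, with 10.04 for all called genes, 4.90 without its 10 most abundant genes and 5.43 to 5.73 without single libraries. The lowered set moved by -9.77, with -13.6, -8.31 and -10.5 to -9.41. The cause was not tested. The ethephon counts without replicate 1 were an alternative chosen after seeing the data. Depth limits calls at 1 CPM or less, and 3 libraries against 3 cannot give an exact p below 0.1.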
